A study of Mus musculus with 12 samples.

Results

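Timp1 and 6 serpin genes (Serpina3f, Serpina3g, Serpinb9, Serpinb6a, Serpinb6b and Serpinb1a) were followed through mouse T cells activated with TNF+TGF-β, with or without TNF receptor 2, with IL-6+TGF-β, or with no added cytokine. They are 7 of the 47643 genes in the deposited table, picked by symbol, and all 7 passed the filter on low values that left 13082 genes for testing. Timp1 and Serpina3f were picked because their values under IL-6+TGF-β lay far above and far below those without cytokine, so the comparison of these conditions describes the 7 genes and tests none of them.

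RNA of 12 libraries was sequenced, 3 in each of 4 groups of cells that the labels call naive CD4+ T cells from the spleens of C57BL/6 mice. The first group came from Tnfr2-/- mice, which lack TNF receptor 2 (gene Tnfrsf1b), and received TNF+TGF-β. The other groups came from wild-type (WT) mice and received TNF+TGF-β, IL-6+TGF-β, or neither (Th0). Every group was activated for 3 days on antibodies to CD3 and CD28 (2 μg/ml each). The cytokine doses were 20 ng/ml for TNF and IL-6 and 2 ng/ml for TGF-β. The labels give neither the ages of the mice nor how the receptor allele was made. Tnfr2-/- cells without cytokine and cells with TGF-β alone were not analysed here, so the knockout's effect cannot be told apart from a difference already there without TNF, nor the effects of TNF or IL-6 from that of TGF-β. The labels call the libraries of a group triplicates and name no separate animals or wells, so p-values measure the spread between these libraries, which may be technical.

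Values are FPKM, fragments per kilobase of transcript divided by the library's mapped fragments. The depth, estimated from the values, was 16500000 to 23900000 fragments per library. Tnfrsf1b stood at 4.87, 3.71 and 3.19 FPKM in the Tnfr2-/- libraries, against 74.39, 108.17 and 70.77 FPKM in the WT libraries with TNF+TGF-β. The libraries were not pure CD4 T cells by their RNA. Cd8a and Cd8b1 both exceeded Cd4 in 11 of 12 libraries. The summed FPKM of 8 B cell markers was 2043.91 to 4467.15 in Tnfr2-/- TNF+TGF-β, 276.77 to 359.70 in WT TNF+TGF-β, 415.13 to 928.03 in IL-6+TGF-β and 829.91 to 1279.69 in Th0. That of 12 myeloid markers was 318.15 to 1595.13, 103.24 to 173.94, 38.31 to 128.23 and 118.77 to 191.45 in the same order of groups, with Elane at 0 in all 12 libraries and Ly6g at 0 in the Tnfr2-/- and WT TNF+TGF-β libraries. In bulk RNA, fewer cells of a type and less RNA per cell cannot be told apart.

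Protease inhibitors set how long and how far a protease acts. TIMP proteins are secreted and block matrix metalloproteinases and some ADAM proteases by sitting in their active site. Serpins offer a bait loop that the protease cuts, after which the inhibitor changes shape and traps the enzyme. The Serpina3 genes of the mouse are copies related to the human gene for antichymotrypsin, while clade B serpins mostly act inside the cell, where they protect lymphocytes and granulocytes from their own granzymes and cathepsins.

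The stretch before the start site is shown for Timp1, the gene with the highest values under IL-6+TGF-β, and for Serpina3f and Serpina3g, the neighbours with the highest values in Th0. The sequences are the 250 bases upstream of the RefSeq start on GRCm38.p6, 5′ to 3′ on the gene's strand, at chrX:20869916-20870165 (+), chr12:104214294-104214543 (+) and chr12:104235897-104236146 (+). The RefSeq start of Serpina3g lies upstream of its GENCODE start. Capitals mark TTCNNNGAA, the letters that STAT proteins are known to bind.
Timp1: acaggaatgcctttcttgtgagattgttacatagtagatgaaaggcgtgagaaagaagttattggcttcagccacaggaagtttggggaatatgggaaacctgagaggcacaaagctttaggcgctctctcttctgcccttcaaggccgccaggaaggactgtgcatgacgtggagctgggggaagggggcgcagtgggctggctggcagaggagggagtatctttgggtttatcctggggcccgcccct
Serpina3f: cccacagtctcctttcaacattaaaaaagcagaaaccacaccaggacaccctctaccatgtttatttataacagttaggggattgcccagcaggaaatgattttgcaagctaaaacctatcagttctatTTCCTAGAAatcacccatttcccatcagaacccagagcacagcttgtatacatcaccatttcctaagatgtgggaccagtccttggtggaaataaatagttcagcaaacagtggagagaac
Serpina3g: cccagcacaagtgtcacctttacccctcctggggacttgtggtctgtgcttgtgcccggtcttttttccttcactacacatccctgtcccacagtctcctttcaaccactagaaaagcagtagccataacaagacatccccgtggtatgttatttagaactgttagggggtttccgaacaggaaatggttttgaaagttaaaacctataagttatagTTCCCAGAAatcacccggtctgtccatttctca
The motif lay 121 to 113 bases before the start of Serpina3f, as TTCCTAGAA, and 33 to 25 bases before that of Serpina3g, as TTCCCAGAA. It occurs in 7.02% of the 32851 windows of this length in the RefSeq table. It also lay before 1 start of Serpinb6a, as TTCCGGGAA. There it overlapped a match to the IRF-type pattern of GAAA, any 2 bases and GAAA, which Serpinb9 also held and which 2.98% of windows hold. Both strands were searched. The AP-1 letters TGANTCA (6.75% of windows) and the NF-κB pattern of GGGA, any 2 bases and TTCC (1.21%) were in no window of the 6 genes with one, and the Timp1 window held none of the 4 motifs. These are matches of letters in one window, not shown to be bound.

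Timp1, an inhibitor of metalloproteinases, lies on the plus strand of chromosome X at 20870166 to 20874735 (GRCm38), inside Syn1, which runs on the other strand. It had 0.66, 0.86 and 0.00 FPKM in Tnfr2-/- TNF+TGF-β, 6.23, 1.66 and 8.68 FPKM in WT TNF+TGF-β, 341.07, 194.43 and 212.56 FPKM in IL-6+TGF-β, and 0.72, 0.35 and 0.94 FPKM in Th0. Every IL-6+TGF-β library was far above every other library, and every WT TNF+TGF-β library lay above the Th0 and Tnfr2-/- libraries, whose ranges overlapped. The Tnfr2-/- libraries were lower than WT under TNF+TGF-β by a log2 difference of -1.97 ± 0.42 (SE, adjusted p = 0.00356, limma on log2(FPKM + 1)). Of the Tnfr2-/- libraries, the one numbered 4 was at 0, where 3 fragments would have given 0.326 FPKM. With a pseudocount of 0.1 in place of 1 the difference was -3.46. The descriptive log2 differences were 1.79 for WT TNF+TGF-β minus Th0, -5.41 for WT TNF+TGF-β minus IL-6+TGF-β and 7.20 for IL-6+TGF-β minus Th0.

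Syn1, the gene of the neuronal vesicle protein synapsin I, had 1.61, 0.50 and 0.13 FPKM in Tnfr2-/- TNF+TGF-β, 2.80, 3.38 and 2.28 FPKM in WT TNF+TGF-β, 4.83, 13.35 and 8.45 FPKM in IL-6+TGF-β, and 0.03, 0.16 and 0.14 FPKM in Th0. The Tnfr2-/- and Th0 libraries overlapped at the low end, and no other groups overlapped. Syn1 fell in Tnfr2-/- against WT under TNF+TGF-β (log2 difference -1.21, adjusted p = 0.0154) and rose with TNF+TGF-β relative to Th0 (1.77, adjusted p = 0.00201) and with IL-6+TGF-β relative to Th0 (3.06, adjusted p = 3.94e-05). Annotated exons of Timp1 and Syn1 share 0 bases, but the library kit does not mark the strand, and Timp1 lies in an intron of Syn1, so unspliced reads of the pair cannot be told apart.

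**Figure D1:**
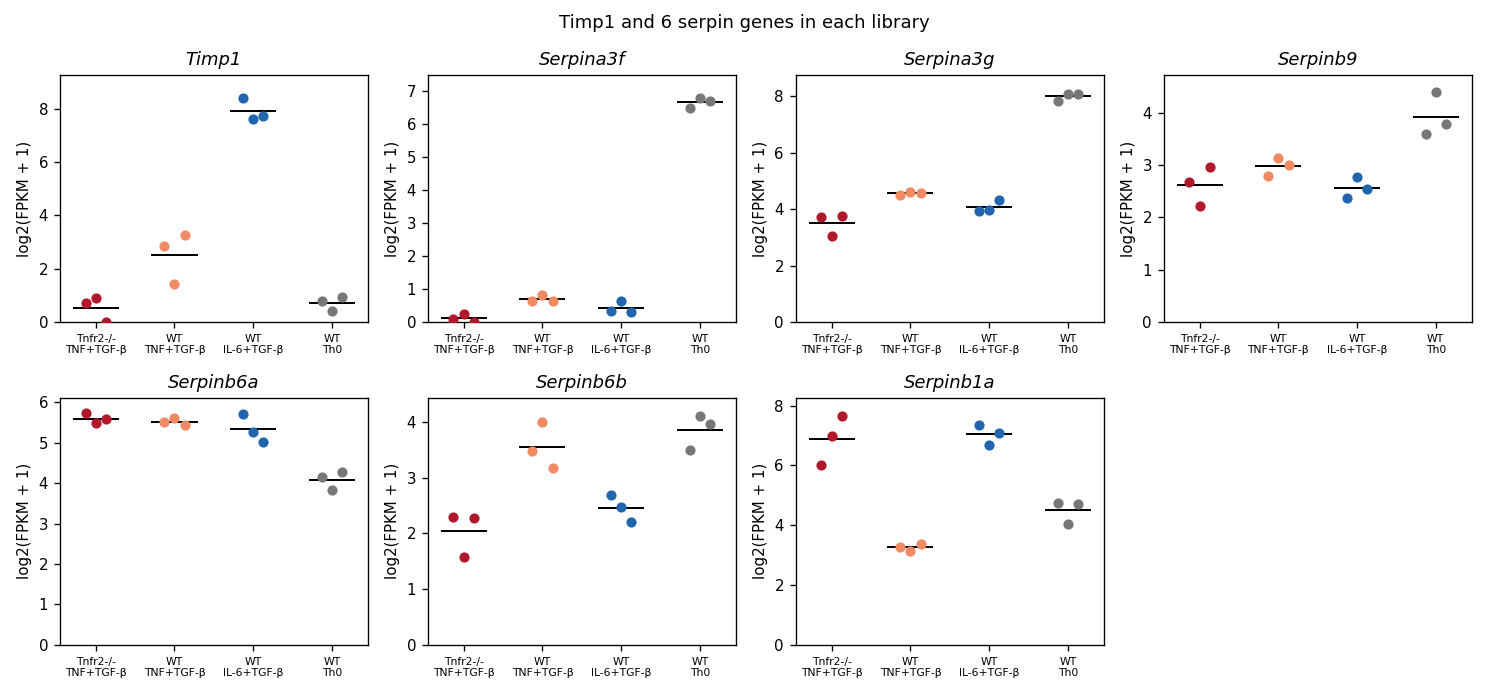
Each panel plots log2(FPKM + 1) of 1 gene in the 12 libraries, by group on the horizontal axis, with the group mean as a bar. Timp1 reached 194.43 to 341.07 FPKM in IL-6+TGF-β, Serpina3f reached 87.71 to 109.81 FPKM in Th0, and Serpinb1a was high in Tnfr2-/- TNF+TGF-β and IL-6+TGF-β.

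Timp2, the other TIMP gene past the filter and also an inhibitor of metalloproteinases, followed another pattern. It had 294.54, 210.79 and 199.35 FPKM in Tnfr2-/- TNF+TGF-β, 273.73, 267.25 and 296.45 FPKM in WT TNF+TGF-β, 305.01, 209.66 and 225.45 FPKM in IL-6+TGF-β, and 34.94, 27.84 and 36.42 FPKM in Th0. The 3 groups with TGF-β overlapped and all lay above Th0. Timp2 rose with TNF+TGF-β (log2 difference 3.05, adjusted p = 2.52e-07) and with IL-6+TGF-β (2.85, adjusted p = 4.10e-07) relative to Th0, and the difference between Tnfr2-/- and WT was -0.27 (adjusted p = 0.259). In FPKM, which are per length, Timp1 overlapped Timp2 in IL-6+TGF-β and lay below it in the other 3 groups.

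Of 79 other TIMP, MMP, ADAM and related genes, 15 passed the filter. With TNF+TGF-β relative to Th0, 11 of the 15 rose and none fell, where 31.7% of all tested genes changed. Their median log2 difference was 0.93, against 0.068 over all tested genes. With IL-6+TGF-β relative to Th0, 8 of 15 rose and none fell (median 0.47, against 0.037), where 23.2% of all tested genes changed. Adam19, a membrane protease that sheds growth factors, averaged 42.1 ± 3.96 FPKM in TNF+TGF-β and 2.24 ± 0.37 FPKM in Th0 (SD, n = 3 each), a log2 difference of 3.74 (adjusted p = 1.05e-06 by limma). Mmp12, the macrophage elastase, averaged 10.6 ± 10.4 FPKM in TNF+TGF-β and 0.167 ± 0.148 FPKM in Th0 (SD, n = 3 each; adjusted p = 0.00278 by limma). Between Tnfr2-/- and WT, 2 of 15 rose and 2 fell, where 37.4% of all tested genes changed; Adam19 and Adam15 were among the 4, with log2 differences of -1.40 (adjusted p = 0.00165) and -1.06 (adjusted p = 0.0426), and Mmp11 stood at 0.91 (adjusted p = 0.0173). Between TNF+TGF-β and IL-6+TGF-β in WT, 2 of 15 rose, Mmp12 (2.58, adjusted p = 0.0119) and Adam17 (0.53, adjusted p = 0.0362).

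Serpina3f lies on chromosome 12 at 104214544 to 104221129 and Serpina3g, known as Spi2A and an inhibitor of lysosomal cathepsins, at 104236245 to 104241939, both on the plus strand. Serpina3f had 0.06, 0.19 and 0.00 FPKM in Tnfr2-/- TNF+TGF-β, 0.57, 0.77 and 0.55 FPKM in WT TNF+TGF-β, 0.26, 0.54 and 0.23 FPKM in IL-6+TGF-β, and 87.71, 109.81 and 103.58 FPKM in Th0. The 4 groups did not overlap, but those with TGF-β lay close together. The highest IL-6+TGF-β library (0.54 FPKM) and the lowest of WT TNF+TGF-β (0.55 FPKM) differed by less than 3 fragments, which give 0.0673 FPKM in the former. All 9 libraries with TGF-β were under 1 FPKM, so Serpina3f passed the filter through Th0 alone. Serpina3g had 12.14, 7.20 and 12.64 FPKM in Tnfr2-/- TNF+TGF-β, 21.92, 23.11 and 22.71 FPKM in WT TNF+TGF-β, 14.47, 14.79 and 18.83 FPKM in IL-6+TGF-β, and 226.54, 271.43 and 268.45 FPKM in Th0. It kept a clear level where Serpina3f was near 0, and its 4 groups did not overlap either.

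Serpina3g fell with TNF+TGF-β relative to Th0 by 3.44 ± 0.19 on the log2 scale (SE, adjusted p = 1.40e-07, limma). The descriptive difference of IL-6+TGF-β minus Th0 was -3.92 for Serpina3g and -6.24 for Serpina3f, and that of TNF+TGF-β minus Th0 was -5.95 for Serpina3f. In Tnfr2-/- against WT under TNF+TGF-β both were lower, Serpina3g by a log2 difference of -1.05 ± 0.19 (adjusted p = 0.00107) and Serpina3f by -0.59 ± 0.16 (adjusted p = 0.0147). The Serpina3f call rests on few fragments and carries little weight. All 6 libraries compared were under 1 FPKM, 2 of the 3 Tnfr2-/- libraries were under the level of 3 fragments (0.0860 and 0.0975 FPKM), and the size of the difference depended on the pseudocount (-2.12 with 0.1). The difference of Serpina3g between TNF+TGF-β and IL-6+TGF-β was 0.48 (adjusted p = 0.126).

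The pair share much sequence. Their coding sequences are identical at 87.4% of 744 aligned bases (GENCODE M21), and 10.6% of the 50-base words of Serpina3f and 15.5% of those of Serpina3g occur in other genes as well. How reads were divided between them is therefore uncertain. Of the 12 other Serpina3 genes in the table, the highest value in any library was 0.23 FPKM (Serpina3n). The sum of Serpina3f and Serpina3g, which also depends on that division because FPKM are per length, was 7.39 to 12.64 FPKM in Tnfr2-/- TNF+TGF-β, 22.49 to 23.88 FPKM in WT TNF+TGF-β, 14.73 to 19.06 FPKM in IL-6+TGF-β and 314.25 to 381.24 FPKM in Th0.

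Interferon-induced genes were also lower in both TGF-β groups of WT cells than in Th0. Of 22 tested genes of that list, 20 fell and none rose with TNF+TGF-β relative to Th0 (where 31.7% of all tested genes changed), with a median log2 difference of -2.11 against 0.068 over all. With IL-6+TGF-β relative to Th0, 20 of 22 fell and none rose (median -1.79, against 0.037), where 23.2% of all tested genes changed. Iigp1, an interferon-induced GTPase, averaged 0.863 ± 0.218 FPKM in TNF+TGF-β and 69.1 ± 1.33 FPKM in Th0 (SD, n = 3 per group; log2 difference -5.24, adjusted p = 8.87e-09, limma). Between Tnfr2-/- and WT, 7 of the 22 rose and 2 fell (median 0.40, against 0.002), a share near the 37.4% of all tested genes called there. Ly6a, a T cell surface protein induced by interferon, had the largest called difference of the list there, a log2 difference of 2.83 (adjusted p = 1.45e-05, limma). Iigp1 averaged 0.613 FPKM in Tnfr2-/- and 0.863 FPKM in WT under TNF+TGF-β, with overlapping libraries. Serpina3f and Serpina3g were lower in Tnfr2-/-, Serpina3f with all values under 1 FPKM.

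**Figure D2:**
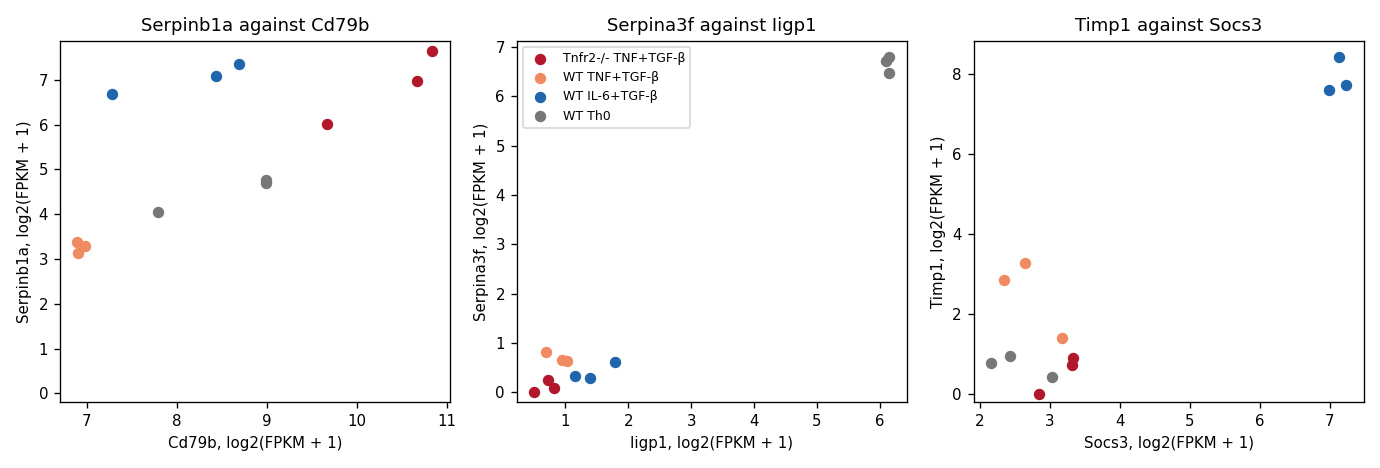
Each point is 1 of the 12 libraries, placed by log2(FPKM + 1) of 2 genes and coloured by group, for Serpinb1a against Cd79b, Serpina3f against Iigp1 and Timp1 against Socs3. Th0 stands apart in the middle panel, and IL-6+TGF-β stands apart in the right panel, where Socs3 was 125.71 to 149.45 FPKM.

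Serpinb1a, an inhibitor of neutrophil elastase, cathepsin G and proteinase 3, lies on the minus strand of chromosome 13 at 32842092 to 32851185. It had 63.77, 124.24 and 199.69 FPKM in Tnfr2-/- TNF+TGF-β, 8.71, 7.76 and 9.45 FPKM in WT TNF+TGF-β, 162.50, 100.93 and 135.11 FPKM in IL-6+TGF-β, and 25.94, 15.44 and 24.90 FPKM in Th0. The Tnfr2-/- and IL-6+TGF-β libraries overlapped and lay above Th0, and WT TNF+TGF-β was the lowest group. Serpinb1a was higher in Tnfr2-/- than in WT under TNF+TGF-β by a log2 difference of 3.61 ± 0.34 (SE, adjusted p = 1.72e-05, limma), the only one of the 7 genes called higher there. With TNF+TGF-β it was lower than with IL-6+TGF-β (-3.77 ± 0.34, adjusted p = 1.37e-05) and lower than in Th0 (-1.23 ± 0.34, adjusted p = 0.0173). The last call was lost without replicate 1 of Th0 (adjusted p = 0.0653), without replicate 3 of Th0 (adjusted p = 0.0629) and without replicate 2 of WT TNF+TGF-β (adjusted p = 0.0606).

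B cell markers moved with Serpinb1a between the TNF+TGF-β groups. All 8 rose in Tnfr2-/- against WT (median log2 difference 2.98, against 0.002 over all tested genes) and all 8 fell in WT TNF+TGF-β relative to Th0 (median -1.69, against 0.068). The shares of all tested genes called in these comparisons were 37.4% and 31.7%. Cd79b, a part of the B cell receptor, had 812.79, 1628.32 and 1832.43 FPKM in the Tnfr2-/- libraries, against 124.73, 118.14 and 118.06 FPKM in WT TNF+TGF-β. In IL-6+TGF-β the descriptive log2 difference of Serpinb1a from Th0 was 2.54, while 3 of the 8 B cell markers fell and none rose. There, 23.2% of all tested genes were called. The part of B cells in the Serpinb1a values of the TNF+TGF-β groups was not tested. Of the 10 tested myeloid markers, 7 rose in Tnfr2-/- against WT and none fell (median 1.57). Of 6 tested MHC class II and dendritic markers, 4 rose and 2 fell (median 3.24), and of 6 tested CD8 and NK markers, 4 fell and none rose (median -2.33). Of 8 T cell markers, 1 rose and 2 fell (median -0.28), a share near the 37.4% of all tested genes called there. The part of these cells in the lower Timp1, Serpina3f, Serpina3g and Serpinb6b values of Tnfr2-/- libraries was not tested either.

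Serpinb9 and Serpinb6b are the granzyme inhibitors of the set: mouse Serpinb9, known as Spi6, blocks granzyme B, and mouse Serpinb6b blocks granzyme A. Both lie on the plus strand of chromosome 13, Serpinb9 at 33003250 to 33017957 and Serpinb6b at 32965209 to 32979067. Serpinb9 had 5.39, 3.66 and 6.81 FPKM in Tnfr2-/- TNF+TGF-β, 5.95, 7.73 and 6.99 FPKM in WT TNF+TGF-β, 4.18, 5.86 and 4.85 FPKM in IL-6+TGF-β, and 11.03, 19.94 and 12.82 FPKM in Th0. Th0 lay above all other libraries, and the Tnfr2-/- libraries overlapped both other groups. Serpinb9 fell with TNF+TGF-β relative to Th0 (log2 difference -0.95 ± 0.24, adjusted p = 0.0107, limma). It differed by -0.35 ± 0.24 between Tnfr2-/- and WT (adjusted p = 0.268) and by 0.41 between TNF+TGF-β and IL-6+TGF-β (adjusted p = 0.330).

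Serpinb6b had 3.89, 1.98 and 3.83 FPKM in Tnfr2-/- TNF+TGF-β, 10.18, 15.01 and 7.98 FPKM in WT TNF+TGF-β, 5.46, 4.54 and 3.59 FPKM in IL-6+TGF-β, and 10.23, 16.14 and 14.55 FPKM in Th0. The groups formed a lower pair, Tnfr2-/- and IL-6+TGF-β, and a higher pair, WT TNF+TGF-β and Th0, with overlap within each pair and none between them. It was lower in Tnfr2-/- than in WT (log2 difference -1.50 ± 0.27, adjusted p = 0.00112) and higher under TNF+TGF-β than under IL-6+TGF-β (1.10 ± 0.27, adjusted p = 0.0168). The second call was lost without replicate 3 of IL-6+TGF-β (adjusted p = 0.0699) and without replicate 2 of WT TNF+TGF-β (adjusted p = 0.0792). The difference between TNF+TGF-β and Th0 was -0.30 ± 0.27 (adjusted p = 0.419).

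The granzymes themselves spanned a wider range. Gzmb averaged 1.50 ± 0.612 FPKM in TNF+TGF-β and 317 ± 263 FPKM in Th0 (SD, n = 3 per group; log2 difference -6.71, adjusted p = 5.64e-07, limma), and it was also lower than with IL-6+TGF-β (-4.01, adjusted p = 6.01e-05). Gzma was lower under TNF+TGF-β than under IL-6+TGF-β (-1.74, adjusted p = 0.000322). Gzmc, another granzyme, averaged 0.137 ± 0.172 FPKM in Tnfr2-/- and 16.6 ± 1.26 FPKM in WT under TNF+TGF-β (SD, n = 3 per group; log2 difference -3.96, adjusted p = 3.83e-06, limma). Over the 17 tested serine and cysteine proteases, 7 rose and 2 fell in Tnfr2-/- against WT, 5 rose and 4 fell with TNF+TGF-β relative to Th0, 2 rose and 5 fell with TNF+TGF-β relative to IL-6+TGF-β, and 7 rose and 4 fell with IL-6+TGF-β relative to Th0. Of all tested genes, 37.4%, 31.7%, 12.8% and 23.2% were called in these 4 comparisons. The medians of the 17 proteases were 0.07, 0.12, -0.20 and 0.27 in these 4 comparisons, against 0.002, 0.068, 0.002 and 0.037 over all tested genes. Among those higher in Tnfr2-/- were Ctsh, the gene of cathepsin H (3.20, adjusted p = 1.60e-05), and Casp1, that of the inflammasome protease caspase-1 (1.97, adjusted p = 0.000329).

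Serpinb6a, related to the human inhibitor SERPINB6 that blocks cathepsin G, lies on the minus strand of chromosome 13 at 33917918 to 34002794. It had 52.00, 43.44 and 46.88 FPKM in Tnfr2-/- TNF+TGF-β, 44.73, 47.42 and 42.11 FPKM in WT TNF+TGF-β, 51.26, 37.24 and 31.31 FPKM in IL-6+TGF-β, and 16.67, 13.28 and 18.20 FPKM in Th0. The 3 groups with TGF-β overlapped and all lay above Th0, as for Timp2. It rose with TNF+TGF-β relative to Th0 (log2 difference 1.43 ± 0.17, adjusted p = 8.15e-05, limma). The differences of 0.08 ± 0.17 between Tnfr2-/- and WT (adjusted p = 0.748) and of 0.19 between TNF+TGF-β and IL-6+TGF-β (adjusted p = 0.553) were smaller than the spread between libraries. Serpinb6a and Serpinb6b are identical at 86.3% of 1128 aligned coding bases, but only 0.8% and 2.9% of their 50-base words occur in other genes. Genes on the other strand share exon bases with Serpinb6a: Nqo2 14.1% of them, 1110046J04Rik 10.8% and Ripk1 4.5%, and their reads cannot be told apart there.

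**Figure D3:**
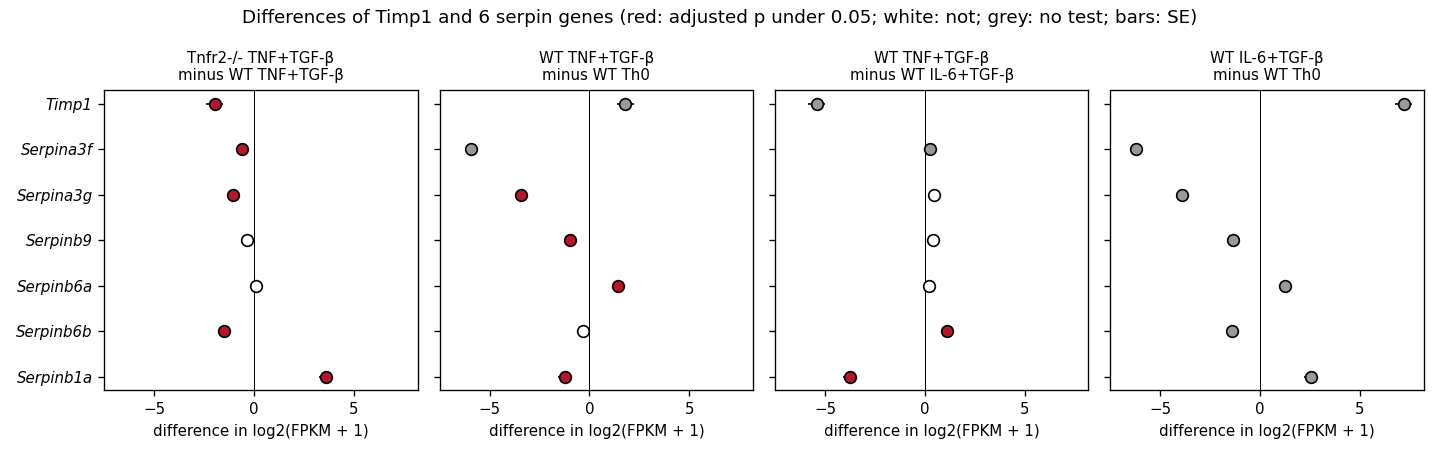
Each panel gives 1 comparison, with the difference in log2(FPKM + 1) on the horizontal axis, the 7 genes down the page and bars for the SE of the fit. Red points had an adjusted p under 0.05, white points did not, and grey points were not tested. Grey marks all 7 genes in IL-6+TGF-β minus Th0, the comparison on which Timp1 and Serpina3f were picked. In the other comparisons that use its libraries, grey marks Timp1 and Serpina3f only.

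Leaving out Serpina3f, which passed the filter only through Th0, 4 of the other 6 genes were called between Tnfr2-/- and WT under TNF+TGF-β, 1 higher and 3 lower, where 37.4% of all tested genes were called. With Serpina3f the count was 5 of 7. This comparison shares no library with the one that chose Timp1 and Serpina3f. Between TNF+TGF-β and Th0 in WT, 4 of the 5 genes tested were called, 1 higher and 3 lower, where 31.7% of all genes were called. The division of all calls there depended on scaling: 2442 genes were higher and 1703 lower with FPKM, 3277 and 1243 with TPM, and 2097 and 2257 with median-ratio scaling. Between Tnfr2-/- and WT it was 2608 higher and 2290 lower with FPKM, and 2103 and 2850 with TPM. No called member changed direction under either scaling. Between TNF+TGF-β and IL-6+TGF-β, 2 of the 5 tested genes were called, 1 higher and 1 lower, where 12.8% of all genes were called, and the count was 1 without replicate 3 of IL-6+TGF-β or without replicate 2 of WT TNF+TGF-β. Between IL-6+TGF-β and Th0, all 7 genes had no overlap between the groups, which the choice of genes bears on, and 39.2% of all tested genes had none, while 23.2% of all tested genes were called. The descriptive differences there of genes not yet given were -1.36 for Serpinb9, 1.25 for Serpinb6a and -1.40 for Serpinb6b. These last 3 comparisons share libraries with each other. The comparison of Tnfr2-/- and WT also shares its WT TNF+TGF-β libraries with the other comparisons of that group, so these results are not independent.

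The sum of the 6 serpin genes was 137.25 to 269.85 FPKM in Tnfr2-/- TNF+TGF-β, 89.79 to 101.80 FPKM in WT TNF+TGF-β, 163.90 to 238.13 FPKM in IL-6+TGF-β and 378.12 to 446.04 FPKM in Th0. The leading gene changed with the condition. Serpinb1a made up 46.5%, 68.8% and 74.0% of the sum in the Tnfr2-/- libraries and 61.6% to 69.7% in IL-6+TGF-β. Serpinb6a made up 46.6% to 48.6% in WT TNF+TGF-β, and Serpina3g 59.9% to 60.9% in Th0. The 4 clade B genes alone summed to 125.05 to 257.21 FPKM in Tnfr2-/- TNF+TGF-β, 66.53 to 77.92 FPKM in WT TNF+TGF-β, 148.57 to 223.40 FPKM in IL-6+TGF-β and 63.87 to 70.47 FPKM in Th0, so WT TNF+TGF-β and Th0 overlapped in this sum.

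**Figure D4:**
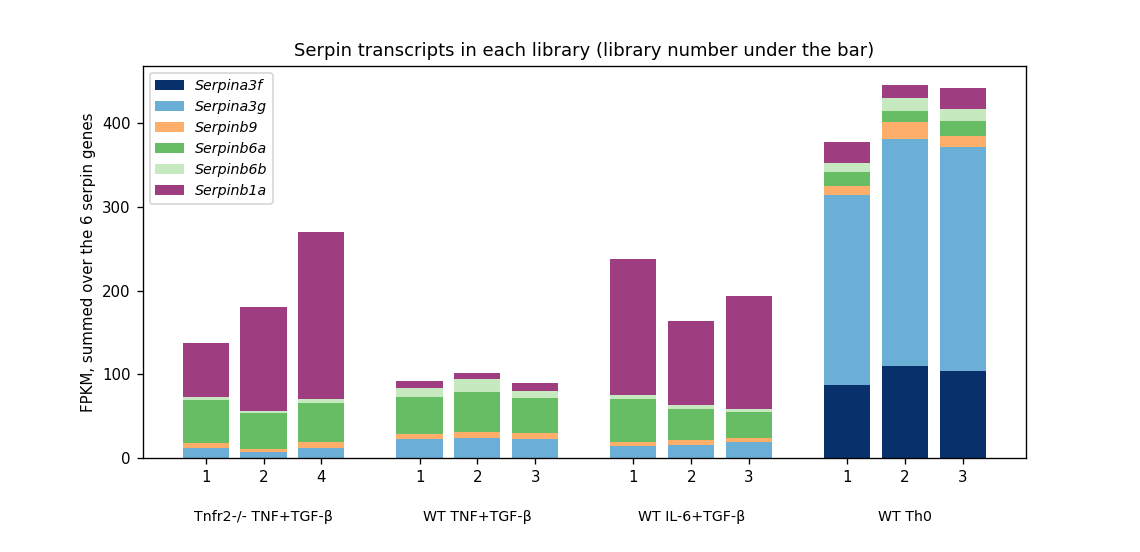
Stacked bars give the FPKM of the 6 serpin genes in each of the 12 libraries, by group and library number. Serpina3f and Serpina3g fill most of the Th0 bars (378.12 to 446.04 FPKM in all), Serpinb6a the largest share of the WT TNF+TGF-β bars, and Serpinb1a the largest share of the others.

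Of the 69 serpin genes in the table, 31 were above 0 in some library and 10 passed the filter, the 6 already described and 4 more. Serpinc1, the gene of the clotting inhibitor antithrombin, had 5.79, 3.66 and 2.18 FPKM in Tnfr2-/- TNF+TGF-β, 28.24, 22.52 and 22.23 FPKM in WT TNF+TGF-β, 0.32, 0.35 and 0.39 FPKM in IL-6+TGF-β, and 5.84, 3.39 and 7.61 FPKM in Th0. WT TNF+TGF-β was the highest group and IL-6+TGF-β the lowest, and the Tnfr2-/- and Th0 libraries overlapped. It fell in Tnfr2-/- against WT (log2 difference -2.44, adjusted p = 6.27e-05), rose with TNF+TGF-β relative to Th0 (1.98, adjusted p = 0.000286) and relative to IL-6+TGF-β (4.22, adjusted p = 1.45e-06), and fell with IL-6+TGF-β relative to Th0 (-2.24, adjusted p = 0.00012). Zbtb37, on the other strand, shares 34.4% of the exon bases of Serpinc1 and reached 6.01 FPKM at most.

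Serpine2, known as protease nexin-1 and an inhibitor of thrombin and plasminogen activators, had 4.06, 3.09 and 1.47 FPKM in Tnfr2-/- TNF+TGF-β, 11.51, 13.67 and 13.67 FPKM in WT TNF+TGF-β, 45.37, 38.15 and 42.56 FPKM in IL-6+TGF-β, and 33.71, 36.56 and 34.42 FPKM in Th0. The groups did not overlap, with Tnfr2-/- the lowest. It fell in Tnfr2-/- against WT (-1.91, adjusted p = 5.27e-05) and with TNF+TGF-β relative to Th0 (-1.37, adjusted p = 0.000575) and relative to IL-6+TGF-β (-1.63, adjusted p = 0.000292). Serpini1, the gene of neuroserpin, an inhibitor of tissue plasminogen activator, was 9.29 to 12.04 FPKM in Tnfr2-/- TNF+TGF-β, 9.65 to 17.28 FPKM in WT TNF+TGF-β, 2.5 to 5.13 FPKM in IL-6+TGF-β and 3.11 to 7.09 FPKM in Th0. It rose with TNF+TGF-β relative to Th0 (1.34, adjusted p = 0.00408) and relative to IL-6+TGF-β (1.62, adjusted p = 0.00224), and differed by -0.24 between Tnfr2-/- and WT (adjusted p = 0.541). Serpinf1, the gene of a serpin without inhibitor activity (PEDF), was 6.33 to 13.19 FPKM in IL-6+TGF-β and 1.91 to 3.83 FPKM in Th0, a rise of 1.22 on the log2 scale (adjusted p = 0.00738). In WT TNF+TGF-β it was 1.11 to 1.97 FPKM, lower than in IL-6+TGF-β (-1.83, adjusted p = 0.000742), and in Tnfr2-/- TNF+TGF-β it was 1.99 to 2.5 FPKM, a difference of 0.32 from WT (adjusted p = 0.392).

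**Figure D5:**
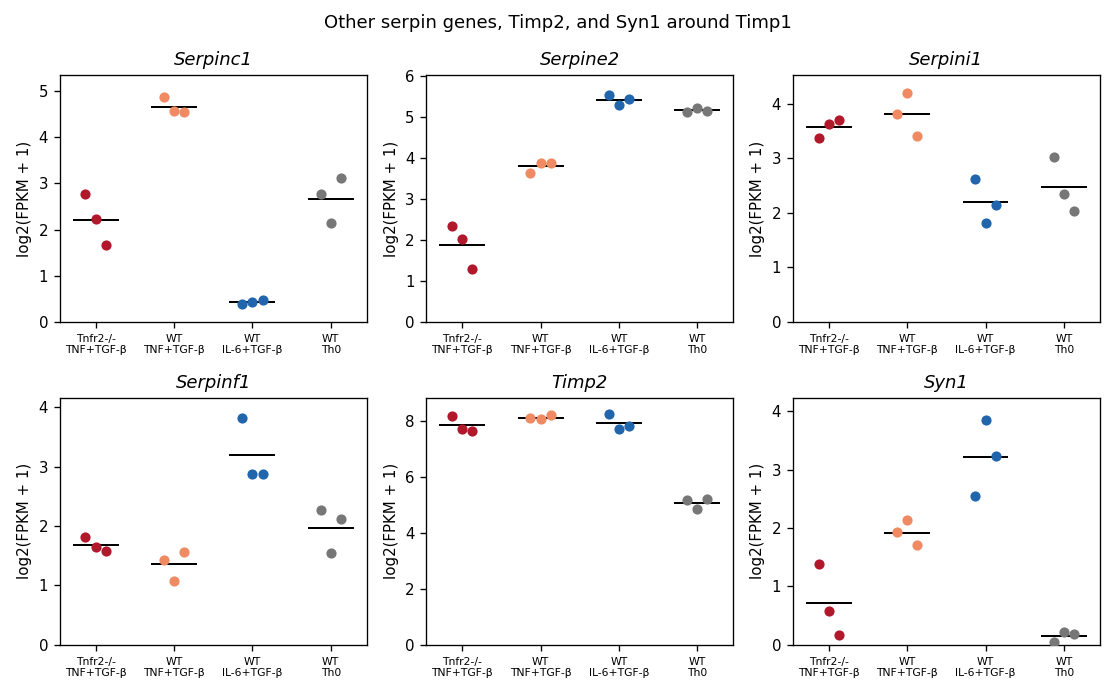
Each panel plots log2(FPKM + 1) of 1 gene in the 12 libraries, by group on the horizontal axis, with the group mean as a bar. Serpinc1 was 22.23 to 28.24 FPKM in WT TNF+TGF-β against 0.32 to 0.39 FPKM in IL-6+TGF-β, and Timp2 was lowest in Th0.

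Inhibitors outside the serpin and TIMP families were counted in the same way. Of 10 tested genes (cystatins, Ctla2a and Ctla2b, Slpi, Tfpi and others), 3 rose and 3 fell in Tnfr2-/- against WT, 4 rose and 3 fell with TNF+TGF-β relative to Th0, 2 rose and 3 fell with TNF+TGF-β relative to IL-6+TGF-β, and 3 rose and 2 fell with IL-6+TGF-β relative to Th0. Of all tested genes, 37.4%, 31.7%, 12.8% and 23.2% were called in these 4 comparisons. The medians of the 10 genes were -0.03, 0.21, -0.11 and -0.19, against 0.002, 0.068, 0.002 and 0.037 over all tested genes. Ctla2a, an inhibitor of cathepsin L-like proteases, averaged 152 ± 20.1 FPKM in IL-6+TGF-β and 3.74 ± 0.632 FPKM in Th0 (SD, n = 3 per group; log2 difference 5.01, adjusted p = 1.30e-07, limma). It was lower under TNF+TGF-β than under IL-6+TGF-β (-2.16, adjusted p = 0.0002) but above Th0 (2.85, adjusted p = 1.22e-05). Slpi, an inhibitor of neutrophil elastase, was higher in Tnfr2-/- than in WT (1.91, adjusted p = 0.0002), as was Cst3, the gene of cystatin C (1.22, adjusted p = 0.00134), while Tfpi, an inhibitor of tissue factor, was lower (-1.57, adjusted p = 0.0195).

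Signalling lists were counted in the same 4 comparisons. Of all tested genes, 37.4% were called between Tnfr2-/- and WT, 31.7% between TNF+TGF-β and Th0, 12.8% between TNF+TGF-β and IL-6+TGF-β and 23.2% between IL-6+TGF-β and Th0. Their median log2 differences were 0.002, 0.068, 0.002 and 0.037. Of 13 tested IL-6 and STAT3 genes, 11 rose and none fell with IL-6+TGF-β relative to Th0 (median 1.43), and 8 fell and none rose with TNF+TGF-β relative to IL-6+TGF-β (median -0.98). Socs3, the feedback inhibitor of IL-6 signalling, averaged 5.80 ± 2.01 FPKM in TNF+TGF-β and 138 ± 11.9 FPKM in IL-6+TGF-β (SD, n = 3 each), with a log2 difference of -4.39 (adjusted p = 4.40e-07 by limma). Of these 13 genes 4 rose and 1 fell with TNF+TGF-β relative to Th0 (median 0.37), and 1 rose and 5 fell in Tnfr2-/- against WT (median -0.29). Of 11 TGF-β and SMAD genes, 10 rose and none fell relative to Th0 both with TNF+TGF-β (median 2.5) and with IL-6+TGF-β (median 2.17). Of these, 2 rose and 3 fell in Tnfr2-/- against WT (median -0.16), and 2 rose and none fell with TNF+TGF-β relative to IL-6+TGF-β (median 0.35). Of 14 NF-κB and TNF genes, 2 rose and 7 fell in Tnfr2-/- against WT (median -0.48), 6 rose and none fell with TNF+TGF-β relative to Th0 (median 0.47), 12 rose and none fell with TNF+TGF-β relative to IL-6+TGF-β (median 1.11), and 1 rose and 5 fell with IL-6+TGF-β relative to Th0 (median -0.26). Nfkb2, a subunit of NF-κB, averaged 62.3 ± 16.9 FPKM in Tnfr2-/- and 233 ± 20.4 FPKM in WT under TNF+TGF-β (SD, n = 3 per group; log2 difference -1.92, adjusted p = 1.08e-05, limma).

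The genes whose values ran most like each of the 7 were found by Pearson's r of log2(FPKM + 1) over the 12 libraries. They were sought among 8135 genes averaging at least 10 FPKM in some group, with predicted genes (Gm or Rik names) left out. These r values describe libraries that share groups and carry no test. For Timp1 they were Pdpn (0.992), Crispld2 (0.987), Cldnd1 (0.987), Ppm1j (0.986) and Cpox (0.981). Pdpn, the gene of podoplanin, averaged 0.00, 1.23, 13.4 and 0.00 FPKM in Tnfr2-/- TNF+TGF-β, WT TNF+TGF-β, IL-6+TGF-β and Th0. For Serpina3f they were Ighg2c (0.997), Iigp1 (0.990), Tap1 (0.988), Sla (0.987) and Gbp10 (0.986), and Ighg2c, an immunoglobulin heavy chain segment made by B cells, averaged 0.00, 0.0733, 0.0467 and 17.8 FPKM in the same order. For Serpina3g they were Serpina3f (0.982), Nbn (0.982) and Gemin8 (0.980). For Serpinb1a they were Lgmn (0.983), which encodes the lysosomal protease legumain, Gngt2 (0.981) and Vpreb3 (0.978), a gene of developing B cells. For Serpinb6a they were Ramp1 (0.975), Capg (0.968) and Timp2 (0.965). Serpinb9 and Serpinb6b had less close matches, with Nampt (0.944) and Gramd1b (0.919) at the top.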

How the data were processed

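Bulk RNA was sequenced in 12 libraries, 3 per group. Per the labels' protocols, a SMARTer kit made the cDNA and a Nextera XT kit the libraries, and neither marks the strand. Per the submitters' processing notes, Trimmomatic, STAR 2.5.4, RSEM 1.3.1 and the mm10 genome were used. Their annotation is not given in the sources used here. The deposited table holds 1 value per gene and library, read as FPKM made by the authors with RSEM: per the file headers they are gene results, and sums differ between libraries (689045 to 828161), while values times transcript length sum to 900467 to 1010096. One Tnfr2-/- column is numbered 4 where the labels give 1, 2 and 3, and was used as a library of its group only.

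The 13082 genes that reached 1 FPKM in 3 or more libraries were fitted as log2(FPKM + 1) in limma 3.58.1 (R 4.3.3). The model had a mean for each group, used all 12 libraries and let the prior variance follow expression level. Benjamini-Hochberg adjustment ran over the 13082 genes in each comparison, and a gene was called at an adjusted p under 0.05. Log2 differences on this scale understate changes of low genes. Depth was estimated from the steps between low values, of which 80.0% to 88.4% lay within 0.2 of a whole multiple, and is approximate; limits of 3 fragments cover counting error only.

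Positions came from GENCODE M21 (GRCm38) and upstream sequences from RefSeq (GRCm38.p6), which matched 6 of the 7 genes, all but Serpinb1a. The 7 genes and the gene lists were chosen with earlier results of these data known. From each list the text names up to 3 called genes per comparison by size of difference, and up to 5 genes most like each of the 7. Alternatives were another pseudocount, no filter, TPM and median-ratio scaling, only the 2 groups compared, no trend and a replicate block. Each library of the 2 groups compared was also left out in turn.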

Additional observations from a re-analysis of the deposited data

How the results depend on the processing

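None of the log2 differences called for the 7 genes changed direction under any alternative run. Over the tested genes and comparisons, 215 alternative values kept their direction and their side of the threshold, 1 changed direction and 5 lost the call, all for Serpinb1a or Serpinb6b with a library left out, as given above. The change of direction was that of Serpinb6a between Tnfr2-/- and WT, which was called under no alternative: -0.04 with TPM scaling, against 0.08 with FPKM, and the cause was not tested. The count of called genes without Serpina3f was added after the data had been seen. The members called between TNF+TGF-β and IL-6+TGF-β numbered 1 to 2 when each library of these groups was left out. With a replicate block, 3253 genes were called between Tnfr2-/- and WT, against 4898 without it. The Tnfr2-/- library numbered 4 had a block of its own, so the blocked comparison rested on the other Tnfr2-/- libraries. Leaving that library out, without a block, gave 3797 called genes. Calls between TNF+TGF-β and Th0 went from 4145 to 4268 with the block. Those between TNF+TGF-β and IL-6+TGF-β went from 1675 to 1741, and those between IL-6+TGF-β and Th0 from 3041 to 3207. The members called stayed at 5, 4 and 2 in the 3 comparisons with tests. The 5 counts Serpina3f, which passed the filter only through Th0. Whether the replicate numbers pair the libraries was not settled, and the main fit does not pair them. Deviations of same-numbered libraries correlated at -0.284 to 0.344 (15 pairs, median 0.051, 5 over 0.1). Differently numbered ones correlated at -0.34 to 0.292 (39 pairs, median -0.032, 9 over 0.1). Among WT groups the ranges were -0.029 to 0.344 for same numbers and -0.34 to 0.181 for different numbers. Same-numbered pairs of a Tnfr2-/- and a WT library ran from -0.284 to 0.082. TPM scaling moved the median log2 difference of all tested genes to 0.223 between TNF+TGF-β and Th0, to 0.132 between IL-6+TGF-β and Th0 and to -0.109 between Tnfr2-/- and WT, against 0.068, 0.037 and 0.002 with FPKM. The genes called lower between TNF+TGF-β and Th0 numbered 1703, and 1111 without replicate 1 of Th0, 1106 without its replicate 3 and 1101 without replicate 2 of WT TNF+TGF-β. Those lower between IL-6+TGF-β and Th0 numbered 1197, and 790 without Th0 replicate 3. Of the values given without a test, 137 moved by less than the spread between libraries and 6 moved by more, 5 of them with a pseudocount of 0.1, for Timp1 and Serpina3f. Depth limits Timp1 in 1 library and Serpina3f in 2 libraries, all Tnfr2-/-, to values under 3 fragments.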
